A study of Mus musculus with 8 samples.

Results

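The IL7 and IL15 axis comprised 10 genes, the cytokines Il7, Il15 and Tslp, the receptor chains Il15ra, Il7r, Il2rg, Il2rb and Crlf2, and the kinases Jak1 and Jak3. They were found by their symbols in a count table of 55471 genes, each symbol on a single row, and 6 of the 10 had enough reads to be tested among 13818 genes. SV-LEC is an SV40-immortalized mouse line described as lymphatic endothelial and as derived from mesenteric adventitia. Cells were grown in high-glucose DMEM with fetal bovine serum and were left untreated or exposed to TGFβ1 at 10 ng/ml for 72 h. RNA was sequenced in 4 libraries per group, which the study's methods call technical replicates, so errors and p-values here cover the spread between libraries of a single line and not that between independent experiments. The question asked of these genes was whether TGFβ1 changed the cytokines and whether the line itself carries the receptors and the presenting chain.

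IL7, IL15 and TSLP are short-range cytokines made largely by stromal, epithelial and myeloid cells. IL7 signals through IL7R paired with the common γ chain encoded by Il2rg. IL15 is held on the surface of the producing cell by IL15RA and presented to neighbours that carry IL2RB and the common γ chain, while TSLP uses CRLF2 together with IL7R. JAK1 is bound by IL7R and IL2RB and JAK3 by the common γ chain, and both kinases pass the signal mainly to STAT5. Lymphocytes are the best known responders, and stromal cells of lymph nodes, lymphatic endothelium included, are a known source of IL7.

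Total counts lay between 18952504 and 26386941 per library, and a gene with 3 counts corresponded to 0.113 to 0.162 CPM (counts scaled to a common library size after TMM normalization). Of 16 lymphatic endothelial markers, 6 were abundant enough to be tested, of which 4 were higher and 1 lower after TGFβ1. Together this was 83.3%, against 75.6% of all genes tested (37.6% higher and 38% lower). Eng, Kdr, Flt4 and Nrp2, which encode receptors or co-receptors of TGFβ and VEGF ligands, rose by 1.21, 0.93, 0.44 and 0.41 on the log2 scale. Pdpn fell from 342 ± 19.5 to 313 ± 5.25 CPM (SD, n = 4), and Tek did not pass. Mmrn1, which was not tested, had 9 to 15 counts in untreated and 0 to 2 in TGFβ1-treated libraries. The summed level of the list was 488 to 519 CPM in untreated and 590 to 603 CPM in TGFβ1-treated libraries. Of the 16, 7 had at most 3 counts in every library, and several of the best known markers were at or near 0, since Prox1 and Cdh5 had at most 2 counts, Lyve1 at most 3 and Pecam1 at most 5 in any library, and Ccl21a and Tie1 had none. Some genes of fibroblasts were high, with Col1a2 at 5497 ± 473 and Pdgfra at 160 ± 10.5 CPM in untreated cells (SD, n = 4). Others of that list were not, since Ccl19 and Cxcl13 had 0 counts in all 8 libraries and Lum at most 9 in any. Of 18 lymphoid markers 16 had at most 3 counts in every library, Ptprc had 1 count in all 8 libraries together, and the exceptions were Zap70 and Lck. Zap70 had 0 counts in untreated and 1 to 6 in TGFβ1-treated libraries, and Lck had 119 to 140 counts in untreated and 21 to 50 in TGFβ1-treated libraries. The summed level of the lymphoid list was 5.03 to 6.49 CPM in untreated and 1.53 to 2.41 CPM in TGFβ1-treated libraries. That of 10 myeloid markers was 15.9 to 19.1 and 32.0 to 34.0 CPM, with Adgre1 and Tyrobp at 0 throughout. The 3 myeloid markers tested were higher, where 37.6% of all genes tested were. Cd68 went from 6.96 to 15.9, Cd14 from 10.2 to 14.8 and Csf1r from 0.278 to 1.38 CPM. Lyz2, not tested, had 1 to 3 counts in untreated and 10 to 13 in TGFβ1-treated libraries. The sum of 7 epithelial markers was 39.5 to 49.1 and 43.4 to 51.1 CPM. The sum of 10 fibroblast markers was 8117 to 10463 and 10481 to 11916 CPM and consisted mostly of the collagen genes, with Col1a1 rising from 3459 ± 611 to 6057 ± 530 CPM (SD, n = 4). Most of that list went the other way, since 4 of 7 tested were lower and 2 higher, with a median log2 fold change of -1.07. Together 85.7% of the 7 were called, against 75.6% of all genes tested. The part of these levels in the results that follow was not tested.

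**Figure D1:**
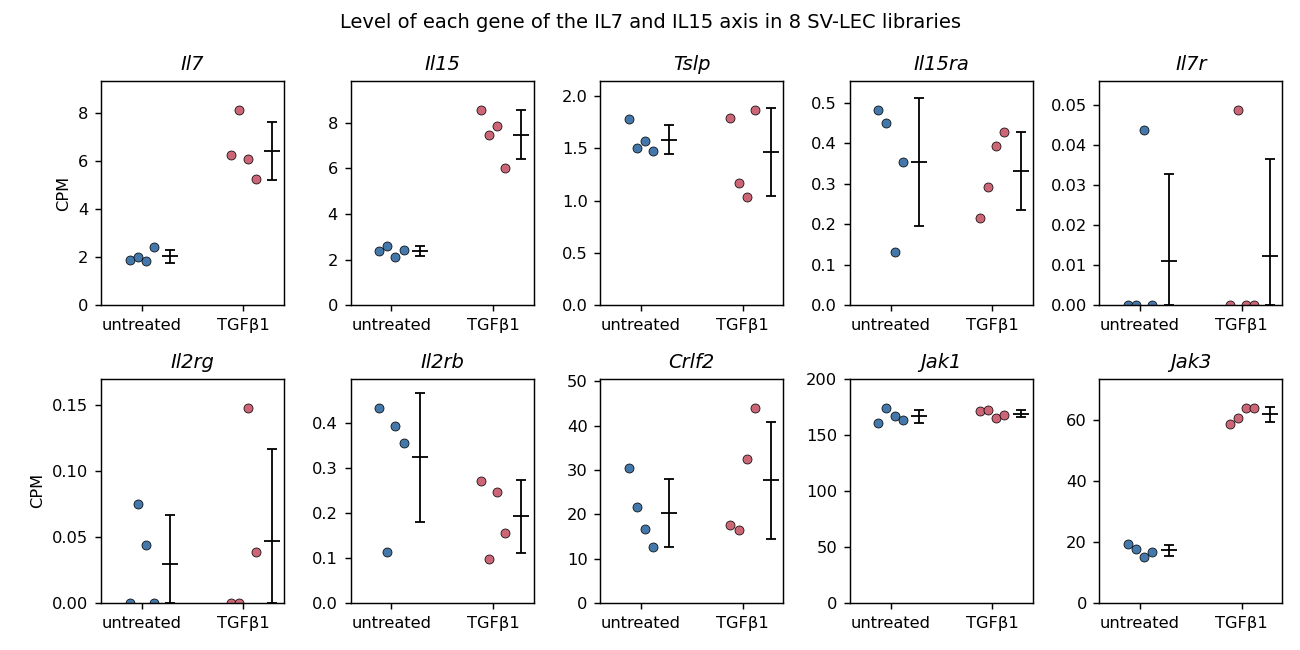
Level of the 10 genes in CPM (each panel has its own linear axis from 0), with 1 point per library and the mean ± SD (n = 4) beside the points, cut at 0 where the SD reaches below it. Il7, Il15 and Jak3 stand higher in all TGFβ1-treated libraries than in any untreated library, Jak1 overlaps between the groups, and Crlf2 is spread over at least 2.40-fold within each group.

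TGFβ1 raised both cytokines named in the axis by about the same factor. Il7 (ENSMUSG00000040329) occupies 7569994 to 7613760 on the minus strand of chromosome 3 of GRCm38. Its levels were 1.88, 1.99, 1.83 and 2.43 CPM in untreated replicates 1 to 4 and 6.27, 8.13, 6.10 and 5.28 CPM in TGFβ1-treated replicates 1 to 4. The lowest treated library lay above the highest untreated one. The change was 3.16-fold, or 1.66 on the log2 scale (standard error 0.169, 95% interval 1.33 to 1.99, edgeR FDR = 4.95e-23 by its likelihood ratio test, which gives the FDRs throughout, quasi-likelihood FDR = 1.95e-07). Il15 (ENSMUSG00000031712) lies on chromosome 8, minus strand, between 82331632 and 82403222. It stood at 2.36, 2.59, 2.10 and 2.43 CPM in the untreated and at 8.55, 7.45, 7.87 and 6.02 CPM in the treated replicates, again without overlap. The change was 3.12-fold, or 1.64 on the log2 scale (standard error 0.150, 95% interval 1.35 to 1.94, edgeR FDR = 1.40e-28, quasi-likelihood FDR = 3.99e-08). In bulk RNA, a change in the number of cells that make a transcript and a change in the amount per cell cannot be told apart.

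The ratio of Il7 to Il15 reads within a library did not differ between the groups beyond its spread. Its log2 value was -0.22 ± 0.17 in untreated and -0.22 ± 0.25 in TGFβ1-treated libraries, a difference of 0.0052 (SD, n = 4; exact two-sided permutation test, p = 0.914, also 0.914 after adjustment over the 3 ratios examined). A larger rise than that of Il7 was seen in 5.04% of the genes tested and than that of Il15 in 5.20%. Per kilobase of exon, Il15 was the more abundant, at 1.05 ± 0.0915 RPKM (CPM per kilobase) against 0.359 ± 0.0484 for Il7 in untreated cells and at 3.30 ± 0.473 against 1.14 ± 0.213 after TGFβ1 (SD, n = 4). Both rested on few reads, 39 to 53 for Il7 and 48 to 69 for Il15 in each untreated library. Of the 5664 exon bases of Il7, 105 (1.85%) also lie in Gm16685, an antisense gene with 0 to 2 counts in untreated and 11 to 16 in treated libraries. The libraries were stranded, but whether counting used the strand is not given in the sources used here.

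Tslp (ENSMUSG00000024379, chromosome 18, plus strand, 32815383 to 32819797), which encodes the cytokine that shares IL7R with IL7, did not pass the test. It stood at 1.78, 1.50, 1.57 and 1.47 CPM in untreated replicates 1 to 4 and at 1.79, 1.17, 1.03 and 1.86 CPM in treated replicates 1 to 4. The treated libraries enclosed the untreated ones. The log2 fold change was -0.098 with a 95% interval from -0.50 to 0.30 (edgeR FDR = 0.671).

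The genes whose course over the 8 libraries was nearest to Il7 were Ptk2b, Acad11 and Tmem38a, and those nearest to Il15 were Fbxo32, Trib2 and Ganc. Likeness was the root mean square difference of log2 CPM, centred on the untreated mean, over 12572 genes with a mean of at least 1 CPM. It was 0.125 for Ptk2b, 0.130 for Acad11 and 0.138 for Tmem38a, and 0.103, 0.105 and 0.125 for Fbxo32, Trib2 and Ganc. All 6 were more abundant than the cytokines, from Fbxo32 at 8.31 CPM to Ptk2b at 62.1 CPM in untreated cells.

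The receptor chains that IL7 and IL15 need for signalling were close to absent in both groups. Il7r (ENSMUSG00000003882, chromosome 15, minus strand, 9505788 to 9530176), the IL7-binding chain, had 1 count in untreated replicate 3, 1 count in TGFβ1-treated replicate 2 and none in the other 6 libraries. The counts summed over a group gave 0.0111 CPM untreated (exact Poisson 95% interval 0.000281 to 0.0619) and 0.0117 CPM treated (0.000297 to 0.0655). Il2rg (ENSMUSG00000031304, chromosome X, minus strand, 101264378 to 101268255), the common γ chain, had 0, 2, 1 and 0 counts in untreated and 0, 0, 3 and 1 counts in treated replicates. Its summed level was 0.0333 CPM (0.00687 to 0.0974) and 0.0470 CPM (0.0128 to 0.120). The intervals cover counting error only. Of the exon bases of Il2rg, 30.5% also belong to Gm20489 on that strand, and reads there may be left out or split by the counting, while Gm20489 itself had 0 counts in every library. No fold change was computed for Il7r or Il2rg, since both groups were at or under 3 counts per library.

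Il2rb (ENSMUSG00000068227, chromosome 15, minus strand, 78479256 to 78495271), the chain shared by the IL2 and IL15 receptors, had 9, 3, 9 and 7 counts in untreated and 5, 2, 5 and 4 counts in treated replicates. The groups overlapped, at 0.324 ± 0.144 and 0.192 ± 0.0804 CPM (SD, n = 4). Il15ra (ENSMUSG00000023206, chromosome 2, plus strand, 11705290 to 11734317), the chain that presents IL15, had 10, 12, 3 and 7 counts in untreated and 4, 6, 8 and 11 counts in treated replicates. It stood at 0.355 ± 0.159 and 0.332 ± 0.0962 CPM, with full overlap between the groups. Both genes were removed by the filter on low counts. Without that filter the log2 fold changes were -0.75 for Il2rb (edgeR FDR = 0.200) and -0.094 for Il15ra (edgeR FDR = 0.865).

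The cytokine rose and its presenting chain stayed at a few reads. Per kilobase, Il15 exceeded Il15ra in both groups, at 1.05 against 0.0798 RPKM untreated and at 3.30 against 0.0747 RPKM after TGFβ1. Within libraries the log2 ratio of Il15 to Il15ra counts was 2.24, 2.48, 3.79 and 2.69 in untreated and 5.14, 4.56, 4.24 and 3.76 in treated replicates 1 to 4. Untreated replicate 3, with 3 Il15ra counts, lay just above the lowest treated library, and the other 3 untreated libraries lay below all treated ones. The mean ratio was higher by 1.62 after TGFβ1 (exact two-sided permutation test, p = 0.0571, 0.0857 after Benjamini-Hochberg adjustment over 3 ratios, n = 4 per group). With each library left out in turn, the difference ran from 1.39 to 1.96 and the exact permutation p from 0.0286 to 0.0857. The lowest p came from leaving out untreated replicate 3, the library that overlapped the treated group (1.96), and the other 7 gave 0.0571 to 0.0857. With 4 libraries in each group no smaller p than 0.0286 can arise.

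**Figure D2:**
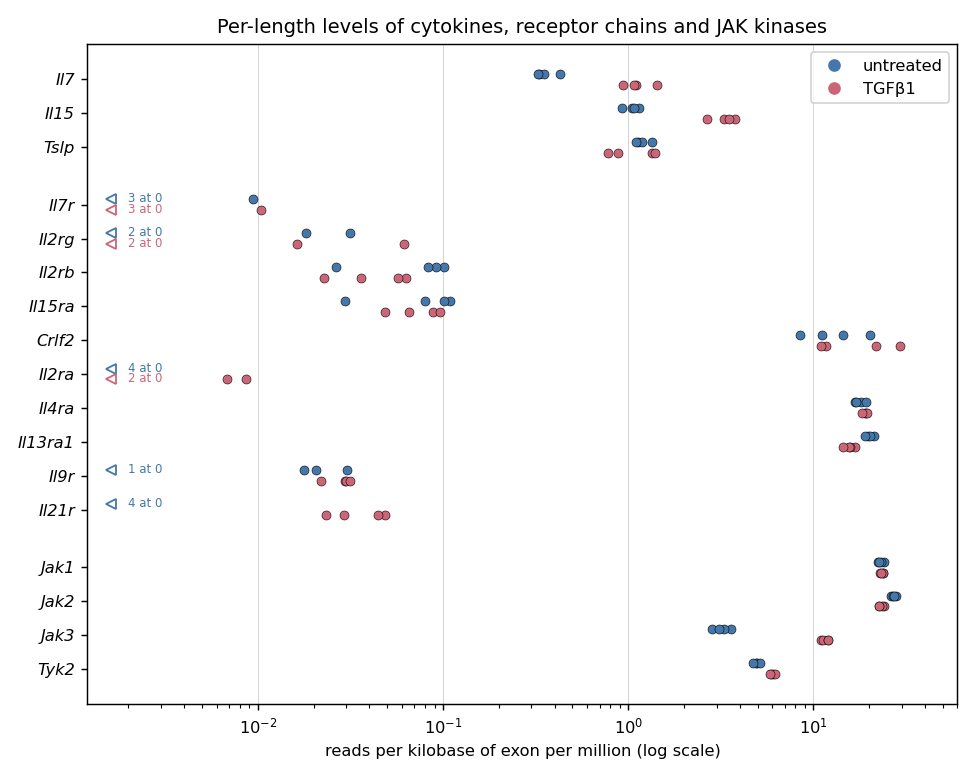
Level in RPKM on a log scale for cytokines, receptor chains and JAK kinases, with 1 point per library and an open triangle at the left edge, with their number, for libraries with 0 counts. Il7r, Il2rg, Il2rb and Il15ra lie below the cytokines in every library, while Crlf2, Il4ra, Il13ra1 and the kinases lie above 1 RPKM.

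Other receptor chains showed that the line does carry members of this receptor class. Il4ra, the IL4-binding chain, stood at 17.7 RPKM in untreated cells, and Il13ra1, which pairs with it in non-lymphoid cells, at 20.1 RPKM. In CPM, Il4ra went from 107 ± 7.22 to 114 ± 2.95 and Il13ra1 from 74.5 ± 3.46 to 58.2 ± 3.54 (SD, n = 4). Il13ra1 fell by 0.36 on the log2 scale (edgeR FDR = 6.10e-10), and Il4ra had a log2 fold change of 0.10 (95% interval -0.0034 to 0.20, edgeR FDR = 0.0746). Il2ra and Il21r had at most 3 counts in any library, Il9r at most 4 and Il13ra2 at most 5. Of the other cytokines of the family, Il4, Il9 and Il13 had 0 counts in all 8 libraries, and Il2 and Il21 had at most 2 and 1 counts in any library.

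Among the kinases Jak3 rose and Jak1 did not pass the test. Jak3 (ENSMUSG00000031805) lies on the plus strand of chromosome 8 between 71676296 and 71690575. It stood at 19.3, 17.7, 15.2 and 16.6 CPM in untreated replicates 1 to 4 and at 58.7, 60.5, 63.8 and 63.8 CPM in treated replicates 1 to 4. No treated library came near the untreated range. The change was 3.60-fold, or 1.85 on the log2 scale (standard error 0.0685, 95% interval 1.71 to 1.98, edgeR FDR = 1.23e-159, quasi-likelihood FDR = 5.05e-12). Of its exon bases 7.55% are shared with Insl3 on the same strand, which had 0 counts in untreated and 1 to 6 in treated libraries.

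Jak1 (ENSMUSG00000028530, chromosome 4, minus strand, 101152367 to 101265282) stood at 161, 174, 167 and 163 CPM in untreated and at 171, 172, 165 and 167 CPM in treated replicates. The ranges overlapped. Its log2 fold change was 0.022 with a 95% interval from -0.059 to 0.10 (edgeR FDR = 0.641). The log2 ratio of Jak1 to Jak3 counts went from 3.28 ± 0.17 to 1.45 ± 0.086, a difference of -1.83 (SD, n = 4; two-sided p = 0.0286 by exact permutation, 0.0857 after adjustment over 3 ratios). Lower ratios were found in 4 of 4 treated libraries.

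Per kilobase, Jak3 was the lowest of the 4 JAK kinases in untreated cells and passed Tyk2 after TGFβ1. The order in untreated cells was Jak2 at 27.2, Jak1 at 23.0, Tyk2 at 4.92 and Jak3 at 3.21 RPKM. After TGFβ1 it was Jak1 at 23.4, Jak2 at 23.2, Jak3 at 11.5 and Tyk2 at 6.00 RPKM, and Jak1 and Jak2 then differed by less than their spread. Jak3 made up 6.31%, 5.47%, 4.87% and 5.37% of the summed JAK level in untreated replicates and 16.9%, 17.6%, 18.7% and 18.8% in treated replicates. Jak2 fell by 0.23 and Tyk2 rose by 0.28 on the log2 scale (edgeR FDR = 1.82e-07 and 1.36e-07).

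The stretches just upstream of both kinases and of Crlf2 are printed because Jak3 rose, Jak1 did not pass the test and Crlf2 varied between libraries. They come from RefSeq on GRCm38.p6 and end before the first annotated exon base, and capitals mark CG pairs, the sites of DNA methylation. Windows were found for 6 of the 10 genes, and none for Il7, Il15, Il2rb and Tslp.
Jak3 (chr8:71676133-71676295, plus strand): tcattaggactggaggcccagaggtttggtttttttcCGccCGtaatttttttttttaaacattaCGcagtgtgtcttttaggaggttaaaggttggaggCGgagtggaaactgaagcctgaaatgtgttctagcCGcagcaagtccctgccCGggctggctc
Jak1 (chr4:101265283-101265473, minus strand): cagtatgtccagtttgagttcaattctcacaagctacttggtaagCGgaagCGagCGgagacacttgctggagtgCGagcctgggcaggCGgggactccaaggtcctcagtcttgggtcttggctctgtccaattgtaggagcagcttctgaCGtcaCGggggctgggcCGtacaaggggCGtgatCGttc
Crlf2 (chr5:109558994-109559243, minus strand): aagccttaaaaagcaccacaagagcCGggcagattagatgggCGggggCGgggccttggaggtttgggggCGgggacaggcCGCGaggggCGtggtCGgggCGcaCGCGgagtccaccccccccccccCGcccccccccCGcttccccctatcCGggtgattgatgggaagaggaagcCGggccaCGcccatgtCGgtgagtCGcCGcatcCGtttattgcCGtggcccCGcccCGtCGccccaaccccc
In the full window of 250 bases before the RefSeq start, Jak3 held 8 CG pairs, Jak1 19 and Crlf2 24, against a median of 6 over 32851 windows. G and C made up 52.4%, 61.2% and 71.6% of the bases, with a median of 52.4% over all windows. None of the 3 windows held the SMAD box CAGAC, the AP-1 motif TGANTCA, the STAT motif TTCNNNGAA or the interferon-stimulated response element core (a spaced pair of GAAA) on either strand. These were present in 42.2%, 6.75%, 7.02% and 2.98% of all windows. The absence says only that these letters do not occur there. Il2rg held none either, while the Il7r window held CAGAC and the STAT motif, and 1 of the windows of Il15ra held the AP-1 motif.

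Crlf2 (ENSMUSG00000033467, chromosome 5, minus strand, 109554709 to 109558993), the TSLP-binding chain, was the only receptor chain of the axis abundant enough to be tested. It stood at 30.4, 21.7, 16.7 and 12.6 CPM in untreated replicates 1 to 4 and at 17.6, 16.4, 32.6 and 44.0 CPM in treated replicates 1 to 4. The groups overlapped, and the highest library exceeded the lowest 2.40-fold among untreated and 2.68-fold among treated libraries. The log2 fold change was 0.44 (standard error 0.294, 95% interval -0.13 to 1.02, edgeR FDR = 0.160). Without untreated replicate 1 it was 0.70 (edgeR FDR = 0.0212), without TGFβ1-treated replicate 2 it was 0.63 (FDR = 0.0372), and without TGFβ1-treated replicate 4 it was 0.13 (FDR = 0.675). The SD of log2 CPM within groups was 0.62, and of 7625 genes with at least its mean level 2 had a larger one, the median of these genes being 0.0616.

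The spread of Crlf2 went with the GC content that a library favoured. Its longest transcript is 65.6% GC, above which lay 38 of 13808 genes tested, with a median of 49.6%. For each library the slope of gene-wise deviations from the group mean was taken on GC content, in log2 units per 10 percentage points. It was 0.067, 0.0072, -0.017 and -0.057 in untreated replicates 1 to 4 and -0.027, -0.046, 0.028 and 0.045 in treated replicates 1 to 4. Within each group the libraries ranked by this slope in the same order as by Crlf2. Il7 and Jak3 also lay far from the median, at 39.0% and 61.0% GC. The log2 deviations of Il7 from its group mean were -0.10, -0.022, -0.13 and 0.26 in untreated replicates 1 to 4. In treated replicates 1 to 4 they were -0.021, 0.35, -0.061 and -0.27, the reverse order of the slope. The untreated libraries followed that reverse order only in part. The log2 deviations of Jak3 were 0.17, 0.045, -0.17 and -0.045 in untreated and -0.071, -0.027, 0.049 and 0.049 in treated replicates 1 to 4. Those of Il15, at 49.6% GC, were -0.0018, 0.13, -0.17 and 0.041 in untreated replicates 1 to 4. In treated replicates 1 to 4 they were 0.20, 0.0072, 0.086 and -0.30, so Il15 too was lowest in treated replicate 4. The part of GC content in the spread of Il7, Jak3 and Il15 was not tested. With the slope as a covariate, an analysis chosen after seeing the data, the log2 fold change of Crlf2 was 0.43 (edgeR FDR = 4.66e-07), against 0.44 without it. The slope was taken from deviations within each group of these same data. So the fit takes out spread within groups, which lowers the FDR, and cannot adjust a GC difference between groups. No call of Crlf2 is drawn from it. Under the same fit the values were 1.67 for Il7, 1.64 for Il15 and 1.85 for Jak3, and Tslp and Jak1 did not pass. Crlf2 shares no stretch of 75 bases, the read length, with another annotated gene.

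**Figure D3:**
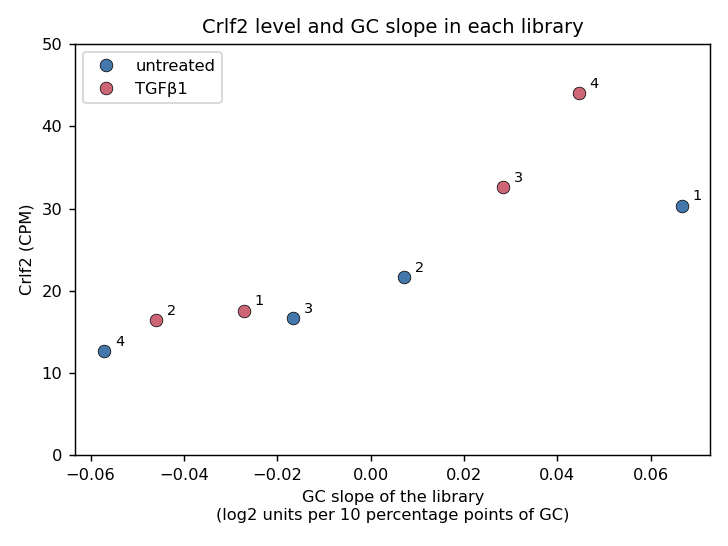
Crlf2 level in CPM (linear axis from 0) against the GC slope of each library in log2 units per 10 percentage points of GC, with 1 point per library labelled by replicate number. Crlf2 is highest at slopes above 0 in both groups, at 30.4 CPM in untreated replicate 1 and 44.0 CPM in treated replicate 4.

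In all, 3 of the 10 genes were significantly higher after TGFβ1 (Il7, Il15 and Jak3, 3 of the 6 tested), where 37.6% of all genes tested were. None was significantly lower by edgeR's likelihood ratio test, its quasi-likelihood test or DESeq2, and 0 had an unadjusted p under 0.05 in that direction in either edgeR test, where 38% of all genes tested were lower. The groups did not overlap in the same 3 genes, which is the case, with the treated group higher, for 34.7% of genes tested. With the treated group lower it is so for 35.1%, and for 69.8% in either direction, while it was the case for 0 of the 10 genes in the lower direction. An exact two-sided permutation test of each of the 3 gave p = 0.0286. Groups of 4 libraries that do not overlap always give this p, so it adds nothing to the lack of overlap.

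Other genes of the pathway, from cytokines and receptors to signalling, target and regulator genes, were read from 7 lists with 79 genes, of which 67 were tested. Among these 29 were significantly higher and 22 lower after TGFβ1, or 76.1%, against 75.6% over all genes tested, so the share was near the background. Over all genes tested 37.6% were higher and 38% lower, against which the counts of each list are to be read. Among the other JAK kinases and STAT factors, 3 of 8 tested were higher and 2 lower, or 3 higher and 4 lower when libraries were scaled by total counts. Stat5b fell from 61.9 ± 2.11 to 41.9 ± 2.02 CPM (SD, n = 4), a log2 fold change of -0.57 (edgeR FDR = 8.60e-26), and Stat5a had a log2 fold change of -0.099 (edgeR FDR = 0.143). Stat2, an interferon-response factor, rose by 0.69 on the log2 scale, and Stat3 and Stat6 had log2 fold changes of -0.079 and 0.010 that did not pass.

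The feedback inhibitors moved in both directions, with 6 of 17 higher and 6 lower, or 4 higher and 8 lower under scaling by total counts, together 70.6% against 75.6% of all genes tested. Cish and Socs2, both known STAT5-induced inhibitors of cytokine receptors, went opposite ways. Cish rose from 12.5 ± 1.06 to 37.8 ± 2.73 CPM and Socs2 fell from 11.4 ± 1.36 to 5.62 ± 0.510 CPM (SD, n = 4), with log2 fold changes of 1.60 and -1.03 (edgeR FDR = 5.71e-92 and 1.96e-18). Pias3, an inhibitor of STAT3, and Sh2b3, the adaptor LNK that restrains JAK signalling, rose by 0.79 and 0.64 on the log2 scale. Socs4 and Pias1 did not pass, at -0.015 and -0.090, though Pias1 had an FDR of 0.0461 by edgeR's quasi-likelihood test. Of 14 adaptor and PI3K-AKT genes 5 were higher and 6 lower, or 78.6% against 75.6% of all genes tested. Pik3r1, the main regulatory subunit, Pik3cd, the leukocyte-rich catalytic subunit, and Akt2 had log2 fold changes of -0.58, -0.55 and -0.45, and Mtor rose by 0.33. Akt1 and Pik3cb had log2 fold changes of -0.060 and 0.017 and did not pass.

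Of 11 STAT5 target genes tested 9 were higher and 2 lower, where 37.6% of all genes tested were higher and 38% lower. The median log2 fold change was 0.55 against -0.0064 over all genes tested. Under scaling by total counts 8 were higher and 2 lower, with a median of 0.48 against -0.074. Ccnd2, which encodes cyclin D2, rose from 46.1 ± 2.99 to 199 ± 12.3 CPM and Bcl2, the survival factor that IL7 maintains in lymphocytes, from 5.09 ± 0.336 to 10.5 ± 0.654 CPM (SD, n = 4). Their log2 fold changes were 2.11 and 1.04 (edgeR FDR = 2.71e-267 and 7.66e-24). Ccnd1 rose by 1.17 on the log2 scale, while Pim1, a kinase gene switched on by STAT5, had a log2 fold change of -1.14. Many of these genes have other regulators, and what moved them was not tested.

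Among 15 tested regulators of Il15, Il15ra and Il7r and proteinases that shed receptors, 6 were higher and 5 lower, or 73.3% against 75.6% of all genes tested. Irf7, an interferon-response factor, rose from 43.5 ± 9.02 to 89.7 ± 10.3 CPM (SD, n = 4), a log2 fold change of 1.04 (edgeR FDR = 6.05e-16). Foxo3, of the FOXO class that drives Il7r in lymphocytes, and Runx1 rose by 0.97 and 0.86 on the log2 scale. Foxo1, of the same class, did not pass, at 0.022 (edgeR FDR = 0.780). The proteinase genes Adam10 and Adam17 were lower, with log2 fold changes of -0.12 and -0.21 (edgeR FDR = 0.00189 and 5.44e-07). Gabpa, an ETS factor needed for Il7r in lymphocytes, had a log2 fold change of -0.67. Nfkb2 and Irf2 did not pass, at 0.013 and 0.053.

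**Figure D4:**
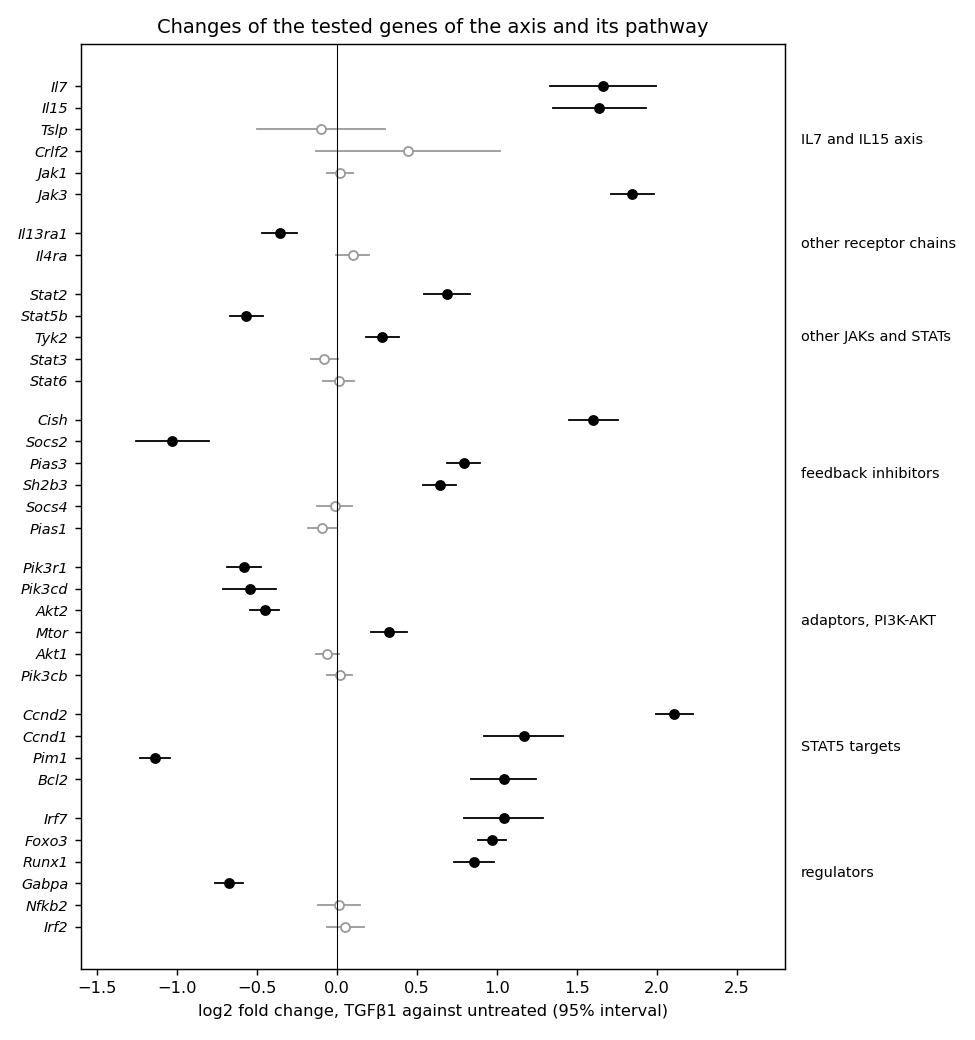
Log2 fold change of TGFβ1-treated against untreated SV-LECs with its 95% interval, for the 6 tested genes of the axis and genes named from 6 pathway lists. Filled black points have an FDR under 0.05 and open grey points do not. Il7, Il15, Jak3, Cish and Ccnd2 lie above 1.5, while Tslp, Crlf2 and Jak1 have intervals that include 0.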

How the data were processed

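Poly(A) RNA of SV-LECs, untreated or treated with TGFβ1, was made into 4 stranded libraries each and read from a single end over 75 bases. After alignment to GRCm38 the authors deposited whole-number counts for each gene, not normalized. The submitters' processing notes name bcl2fastq 2.20.0.422, STAR 2.7.3a and featureCounts 1.5.1, and the annotation release and the use of strand are not given in the sources used here. Samples were grouped by their titles.

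The analysis used edgeR 4.0.16 in R 4.3.3 (filterByExpr, TMM, estimateDisp, glmFit, glmLRT), the test named in the study's methods, with Benjamini-Hochberg FDRs over 13818 genes and a threshold of 0.05. Standard errors came from the fitted negative binomial variances. The quasi-likelihood test and DESeq2 1.42.0 were alternatives, and the pipeline was tested on simulated data. Ratios of counts carry a pseudocount of 0.5 and were tested by exact permutation. GENCODE M21, which held 55144 of the identifiers, supplied positions, exon lengths and GC content. Named genes were all 10 members and, per list, up to 4 genes with the largest significant change and up to 2 abundant genes that did not pass, with Stat5a, Jak2 and genes beside 0 added after their values were seen. A gene that this rule names is not reported here. The members and lists were chosen with earlier results of these data known. Chi-square over degrees of freedom between libraries of a group was 2.37 to 7.84 over 12 pairs, above sampling noise.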

Additional observations from a re-analysis of the deposited data

Results flagged for a closer look

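Among 26 sets of 4 libraries (10 genes and 3 ratios in 2 groups), a single library stood apart in 2. Both belonged to Il7r. Chance alone flags about 1 set in 20 of continuous values, a rate that does not hold for counts near 0. In untreated libraries replicate 3 had 1 count and the others 0, and in TGFβ1-treated libraries replicate 2 had 1 count and the others 0, so the gap to the nearest library was the whole range (a ratio of 1 in each case). With single reads this reflects the step from 0 to 1 count and no difference in level can be read from it.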

How the results depend on the processing

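Fits were recomputed under 17 other settings and ratios under 11, each including every library left out in turn. The number of significantly higher genes was 3 or 4 throughout, and 0 genes were lower. The fourth was Crlf2 without untreated replicate 1, without TGFβ1-treated replicate 2 or with the GC slope as a covariate. The fit with the GC slope takes out spread within groups only. With a library left out, log2 fold changes ran from 1.53 to 1.75 for Il7, 1.57 to 1.74 for Il15 and 1.79 to 1.90 for Jak3. The pathway lists gave 25 to 30 higher and 21 to 27 lower genes. For the ratio of Il15 to Il15ra, a pseudocount of 2 counts gave a difference of 1.60 (exact permutation p = 0.0286, not adjusted over the 3 ratios). The unadjusted exact permutation p was 0.0571 without a pseudocount and 0.125 with a replicate block. With each library left out the difference ranged from 1.39 to 1.96. Replicate numbers are shared by the groups, and the study's methods describe no pairing. Same-numbered libraries had correlations of -0.103, -0.0594, -0.0336 and -0.193 in their deviations. With so few libraries, these cannot decide whether the libraries were paired. With a replicate block 3 genes were higher and 29 and 22 list genes were higher and lower, and the ratio of Jak1 to Jak3 (-1.83) had p = 0.125 in the exact permutation test, the smallest that 4 pairs allow. Il7r, Il2rg, Il2rb and Il15ra rest on at most 12 counts per library, which limits what can be said of a change in them.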
